A study of Arabidopsis thaliana with 28 samples.

Results

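Cytoplasmic RNA of the mutant mos11 was compared with that of the wild type Col-0 across the genes of Arabidopsis thaliana. The comparison used the 9 libraries that the count table names as cytoplasmic, of 18 in all: 5 from mos11 and 4 from Col-0. The plants were 14-day rosettes raised in long days, on soil or on MS medium, and the labels do not say which of these a library had. Col-0 is the reference accession of the species; mos11 carries a mutation in the gene MOS11, whose allele the labels do not name. Nuclei and cytoplasm were parted by differential centrifugation, an RNA spike-in mix was added, and ribosomal RNA was depleted before sequencing. Spike-in counts were not used here. Each level is thus relative to the scaled total of its own library, and the amount of RNA per cell is unknown. The labels do not state that replicates came from separate plantings, so the p-values speak only of how far these libraries vary, and that variation may be technical. The tissue is a mixture, and fewer cells of a type and less RNA per cell cannot be told apart.

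MOS11 is the plant relative of human CIP29, a small RNA-binding protein. It works with the RNA helicase UAP56 and the TREX complex, which loads export adaptors onto finished mRNA so that it can pass the nuclear pore. The gene was found in Arabidopsis as a modifier of snc1, an allele of the immune receptor gene SNC1 that keeps defence switched on. The level of an mRNA in the cytoplasm reflects its synthesis, processing, export and decay together, and a count of cytoplasmic reads does not separate these steps.

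The cytoplasmic libraries held 907270 to 1280371 counts in mos11 and 556016 to 1160001 counts in Col-0. The factors that scaled these totals (TMM) were 1.03 to 1.08 in mos11 and 0.909 to 0.974 in Col-0. The libraries of mos11 were more alike than those of Col-0, with a biological coefficient of variation of 10.2% in mos11 and 23.2% in Col-0. Among Col-0 libraries, replicate 3 stood apart and had the lowest weight, 0.462, in a fit that weights libraries, against 0.912 to 1.24 for the others. Genes enriched over 8-fold in the nuclear libraries of both genotypes, 559 in number, took 0.151% ± 0.0210 of the cytoplasmic counts in mos11 (SD, n = 5) and 0.0996% ± 0.0108 in Col-0 (SD, n = 4). The groups did not overlap (0.137% to 0.188% in mos11, 0.0865% to 0.112% in Col-0; exact permutation test, two-sided, p = 0.00794, the smallest that 5 against 4 libraries can give). The part that this difference has in the results below was not tested.

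MOS11 itself lies at chr5:627034-629280 on the minus strand (TAIR10.1 coordinates of the RefSeq annotation) and overlaps AT5G02760 on the other strand. Its cytoplasmic transcript stood at 3.05, 4.78, 7.15, 7.42 and 5.20 CPM (counts per 1e6 of the scaled library total) in mos11, against 77.0, 58.3, 82.3 and 65.5 CPM in Col-0. Every mos11 library was below every Col-0 library. The log2 fold change of mos11 over Col-0 was -3.69 ± 0.24 (SE), a 12.9-fold lower level (edgeR quasi-likelihood test, Benjamini-Hochberg adjusted p = 8.81e-09; exact permutation test on log2 CPM, two-sided, p = 0.00794). In the nucleus the same transcript differed by -0.28 on the log2 scale (adjusted p = 0.0545 in a fit of all 18 libraries). The changes in the 2 fractions differed by -3.45 (adjusted p of the difference 1.77e-10).

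In all, 10012 of 30901 genes had enough counts to test, and 1525 of them (15.2%) passed an adjusted p of 0.05. Of these, 709 (7.08% of those tested) were higher in mos11 and 816 (8.15%) were lower. Counts for the gene lists below are to be read against these shares. The filter asks for enough counts in as many libraries as the smaller group holds. A gene scarce in one genotype can thus be tested through the other alone. Changes of over 2-fold were seen for 338 of the higher and 204 of the lower genes. The groups did not overlap for 728 higher and 760 lower genes, 7.27% and 7.59% of those tested, and 852 genes (8.51%) passed also without each of the 9 libraries in turn, 403 higher (4.03%) and 449 lower (4.48%). The median log2 fold change over all tested genes was 0.01. Among other factors of mRNA export, no change passed the test: of 23 tested genes of 27 listed (THO and TREX subunits, ALY adaptors, UAP56, UIEF adaptors, SAC3 proteins and factors at the nuclear pore), MOS11 was the only one that did, and the median was -0.06. Without Col-0 replicate 4 a further member was lower, and without mos11 replicate 2 or Col-0 replicate 2 there was 1 member higher.

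**Figure D1:**
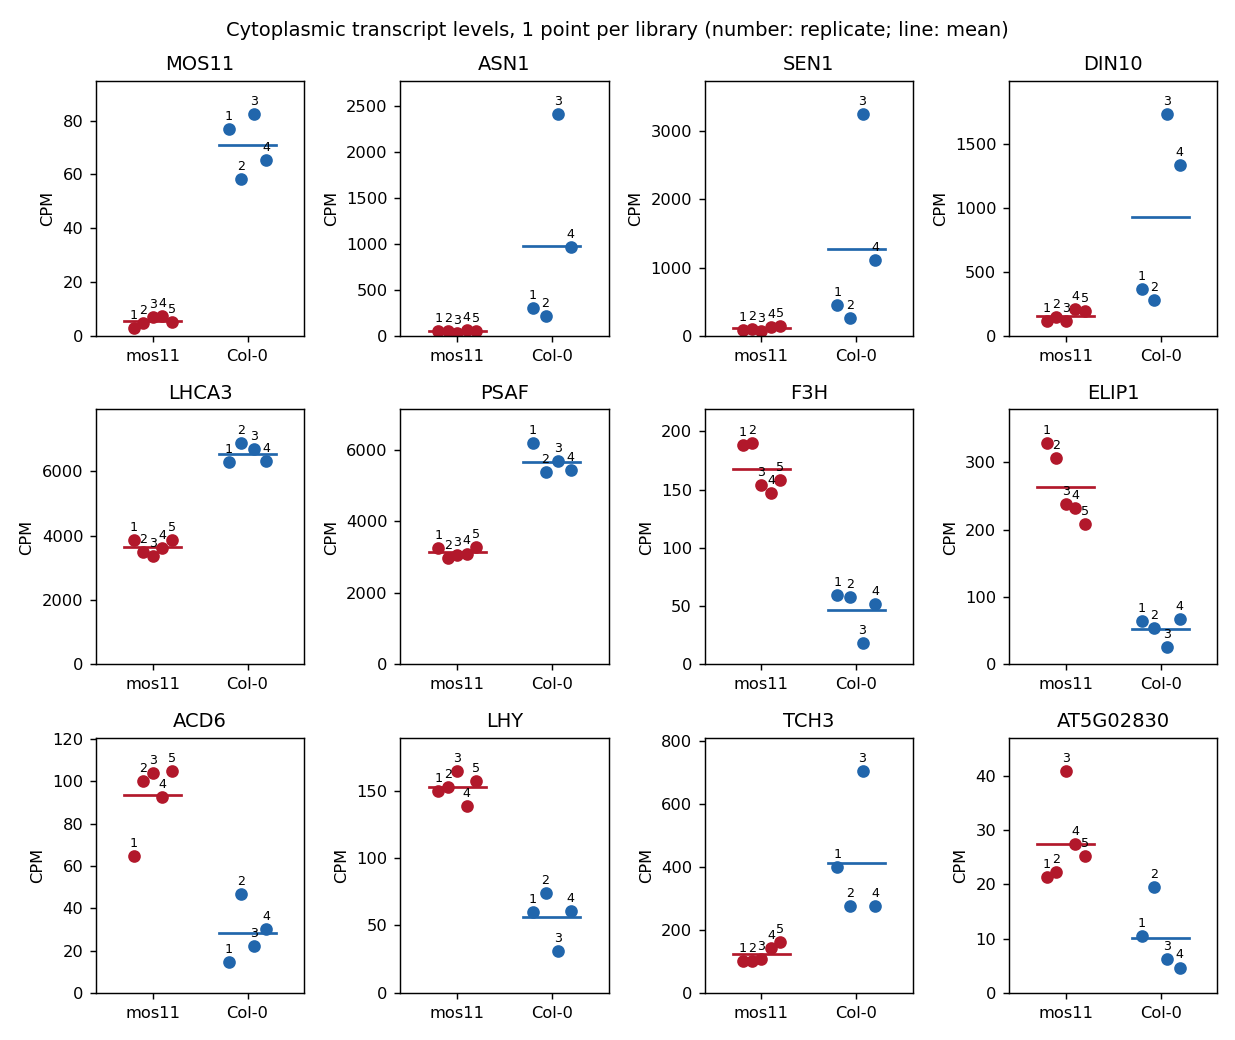
Cytoplasmic level of 12 genes in CPM (linear axis from 0), with mos11 on the left and Col-0 on the right; each point is 1 library with its replicate number, and the line is the group mean. The groups do not overlap in any panel. For ASN1, SEN1, DIN10 and ELIP1, which are among the largest changes, this was a condition of the choice. Col-0 replicate 3 is the highest point for ASN1, SEN1 and DIN10.

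Transcripts for the proteins that capture light fell as a group in mos11 cytoplasm. Of 21 genes for the light-harvesting antenna, the chlorophyll-binding proteins around both photosystems, 17 fell and none rose, with a median log2 fold change of -0.55. Of 30 nuclear genes for photosystem subunits and their electron carriers, 23 fell and none rose, with a median of -0.59. Of these, 15 antenna and 24 photosystem genes were in the shortest quartile of transcript length, and the medians of all tested genes in the members' length quartiles averaged -0.15 and -0.16. Together the antenna transcripts summed to 71200 ± 4849 CPM in mos11 (SD, n = 5) and 109104 ± 6542 CPM in Col-0 (SD, n = 4). The photosystem transcripts summed to 68317 ± 2335 CPM in mos11 (SD, n = 5) and 97208 ± 3344 CPM in Col-0 (SD, n = 4). On this scale all tested genes summed to 915770 ± 23337 CPM in mos11 (SD, n = 5) and 1047389 ± 33377 CPM in Col-0 (SD, n = 4). Without Col-0 replicate 3 the medians were -0.60 and -0.58, with 17 and 26 genes lower. Without Col-0 replicate 4, or for the photosystem genes under upper-quartile scaling, 1 member of a list was higher.

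LHCA3, an antenna protein of photosystem I, stood at 3876, 3491, 3372, 3609 and 3867 CPM in mos11 and 6276, 6888, 6693 and 6319 CPM in Col-0. All 5 mos11 libraries lay well under the 4 Col-0 libraries, and the log2 fold change was -0.84 ± 0.08 (SE, adjusted p = 1.60e-06). PSAF, the subunit of photosystem I that docks plastocyanin, had 3262, 2980, 3051, 3099 and 3271 CPM in mos11 and 6193, 5369, 5681 and 5418 CPM in Col-0. It too showed no overlap between the groups, at -0.85 ± 0.08 (adjusted p = 1.60e-06). The steepest fall of the antenna list was that of LHB1B1, a protein of the main antenna of photosystem II, at 669 to 823 CPM in mos11 and 1586 to 2650 CPM in Col-0 (-1.56 ± 0.13, adjusted p = 1.78e-07). Its neighbour LHB1B2, one of the most abundant mRNAs of the cytoplasm, fell by less, with 9124 to 11118 CPM in mos11 and 12738 to 21028 CPM in Col-0 (-0.66 ± 0.12). Near-identical antenna genes can share reads, so the split between them is uncertain.

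For photosynthesis genes the genotype difference was often steeper in the cytoplasm than in the nucleus. Over all 16207 genes tested in both fractions, the genotype difference itself differed between fractions for 256 (1.58%). Among the antenna genes this held for 8 of 21 and among the photosystem genes for 13 of 30, each time with the cytoplasm more negative. Leaving out 1 of the 18 libraries at a time moved these counts between 3 and 9 and between 5 and 13. The 1.58% covers genes of all levels and lengths, and no share was drawn up for genes as abundant or as short. In the cytoplasm alone, 2.03% of tested genes under 20 CPM were lower and 4.74% higher. Over 1000 CPM, 45.4% were lower and 6.48% higher. The count over all genes was 132 without mos11 cytoplasmic replicate 4, 154 without Col-0 cytoplasmic replicate 4, 159 without mos11 cytoplasmic replicate 2 and 162 without Col-0 nuclear replicate 4. It was 147, 160 and 152 without mos11 nuclear replicates 2, 3 and 5. Same-numbered nuclear and cytoplasmic libraries had deviations that correlated over genes at 0.0146 to 0.0526 in mos11 and at 0.105 to 0.333 in Col-0. With the number as a block within each genotype, 628 genes differed between fractions, among them 11 antenna and 16 photosystem genes with the cytoplasm more negative and 2 antenna genes with it more positive. PSAF was -0.87 in the cytoplasm and 0.04 in the nucleus on the log2 scale (adjusted p of the difference 3.09e-04), and LHCB2.3, of the main photosystem II antenna, was -0.96 and -0.11 in the same order (0.00734). In the nucleus, where 20.1% of the 16207 genes passed in either direction, 7 antenna and 10 photosystem genes fell and 1 antenna gene rose.

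**Figure D2:**
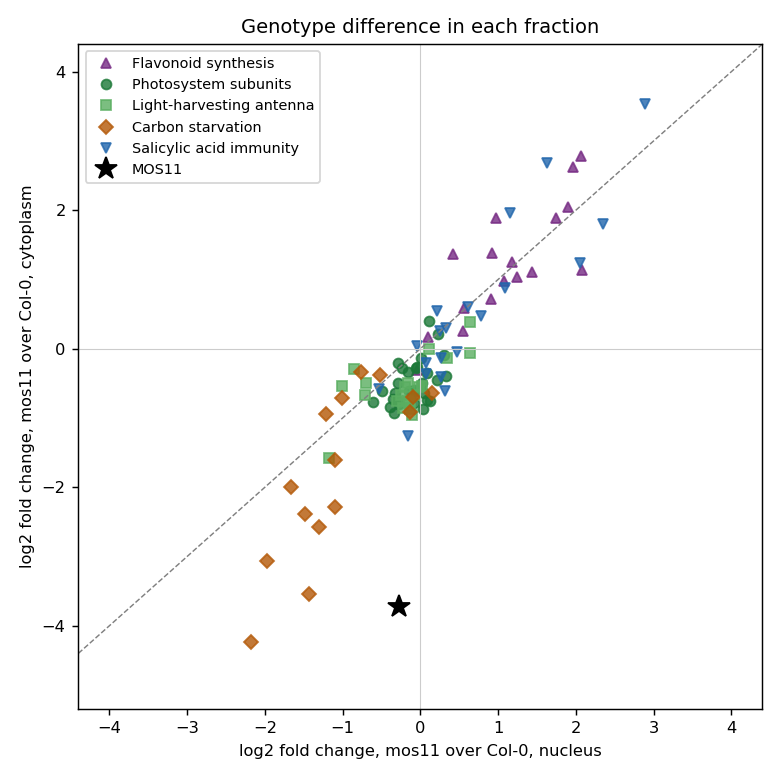
Log2 fold change of mos11 over Col-0 in the cytoplasm (vertical) against that in the nucleus (horizontal), both from the fit of 18 libraries; each symbol is a gene of the named list and the dashed line marks equal change. Most photosystem and antenna genes sit under the line near 0 on the horizontal axis, most flavonoid genes lie at the upper right, and MOS11 lies far under the line.

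Other steps of photosynthesis did not follow the same course. Of 20 tested genes of chlorophyll synthesis, 5 fell and 1 rose (3 rose without Col-0 replicate 2). PORB, the light-dependent reductase of protochlorophyllide, fell to 138, 170.3, 125, 187 and 184 CPM in mos11, against 692, 464, 808 and 533 CPM in Col-0, with no overlap (-1.96 ± 0.16, adjusted p = 1.78e-07). GUN5, the large subunit of magnesium chelatase, rose to 2429 to 3063 CPM in mos11, against 1629 to 2111 CPM in Col-0 (0.58 ± 0.10). Of 21 Calvin cycle genes, 2 fell (9.52%) and 1 rose (4.76%), shares near the 8.15% lower and 7.08% higher of all tested genes. The Rubisco small subunit gene RBCS3B fell by 0.40 (adjusted p = 0.00786), and the aldolase FBA1 rose by 0.58 (adjusted p = 0.00706). Under upper-quartile scaling 3 Calvin cycle genes were higher, and 2 without mos11 replicate 4 or Col-0 replicates 2 or 4; 1 was lower without mos11 replicate 2. In photorespiration 3 of 13 genes rose (23.1%) and 1 fell (7.69%). Among the risers were both genes for the P-protein of glycine decarboxylase, GLDP1 (0.70 ± 0.14) and GLDP2 (0.58 ± 0.12). The single fall was lost without mos11 replicates 2, 3 or 4 or Col-0 replicate 2.

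Most tested genes on a list of responses to darkness and sugar shortage fell. ASN1, the dark-inducible asparagine synthetase that stores nitrogen when carbon is short, had the deepest fall of the genes named, and SEN1, a marker of darkness and senescence, the next after MOS11. Of 15 tested genes of 19 on a carbon starvation list, 11 fell and none rose, and the median log2 fold change was -1.58, against 0.01 for all tested genes. The list was drawn up with ASN1 and its like already known to differ in these samples, so its direction is no independent evidence. The promoters of the 2 leading genes are shown because both are classed as dark-inducible and moved together; capitals mark the G-box (CACGTG) and the I-box (GATAAG), searched on both strands, so an I-box on the other strand reads CTTATC. Each run holds the 250 bases before the annotated gene start, 5′ to 3′ on the gene's strand, from the RefSeq genome TAIR10.1 (chr3:17441432-17441681, minus strand for ASN1 and chr4:16944628-16944877, plus strand for SEN1).
ASN1: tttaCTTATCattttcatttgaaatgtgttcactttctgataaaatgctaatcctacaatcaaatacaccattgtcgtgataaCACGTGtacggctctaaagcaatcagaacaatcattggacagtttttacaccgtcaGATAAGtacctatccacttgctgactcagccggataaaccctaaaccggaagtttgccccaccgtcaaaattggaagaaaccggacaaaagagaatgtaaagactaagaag
SEN1: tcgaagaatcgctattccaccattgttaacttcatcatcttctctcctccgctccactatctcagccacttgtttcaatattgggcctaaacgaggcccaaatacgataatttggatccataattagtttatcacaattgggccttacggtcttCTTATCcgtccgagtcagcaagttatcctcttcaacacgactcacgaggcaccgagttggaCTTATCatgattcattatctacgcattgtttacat

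The ASN1 promoter held 1 G-box and 2 I-boxes, and the SEN1 promoter 2 I-boxes. Of 15 promoters of the tested starvation genes, 1 held a G-box (6.67%), against 7.85% of all tested genes. An I-box lay in 6 of 15 promoters of the tested starvation genes (40.0%), against 12.9% of the promoters of all tested genes and 12.4% of all genes in the table. It also lay in 6 of 20 promoters of the tested salicylic acid immunity genes (30.0%), of which 6 rose and 1 fell. Among genes that passed without each library in turn, the share was 13.6% for the higher and 18.9% for the lower. A match is a string of letters and not a proven site.

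ASN1 counts came to 51.0, 54.9, 28.6, 69.8 and 56.5 CPM in mos11, against 305, 216, 2408 and 968 CPM in Col-0. The groups did not overlap, and the spread lay in Col-0, where replicates 3 and 4 were far above replicates 1 and 2. The log2 fold change was -4.22 ± 0.48 (SE, adjusted p = 9.17e-06), and -3.25 without Col-0 replicate 3. SEN1 stood at 92.1, 103, 78.6, 134 and 145 CPM in mos11 and 456, 266, 3245 and 1108 CPM in Col-0, with the same libraries high (-3.52 ± 0.46, adjusted p = 3.05e-05; -2.48 without Col-0 replicate 3). DIN10, a raffinose synthase family gene induced in the dark, had 120.3, 151, 116, 210.0 and 192 CPM in mos11 and 363, 284, 1731 and 1333 CPM in Col-0 (-2.56 ± 0.36). ASN1 and DIN10 each overlap a gene on the other strand, AT3G47341 and AT5G20260, and the labels do not say whether counting used strand.

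BT2, a sugar-repressed scaffold protein gene, varied less among Col-0 libraries, with 12.9, 17.5, 17.4, 43.0 and 27.5 CPM in mos11 and 128, 105, 163 and 92.4 CPM in Col-0 (-2.36 ± 0.25, adjusted p = 4.56e-06). The dormancy-associated genes DYL1 (-2.26 ± 0.33) and AT2G33830 (-3.02 ± 0.40) also fell, with log2 fold changes of -1.55 and -2.23 without Col-0 replicate 3. MIOX2, a myo-inositol oxygenase gene, had 12.2 to 31.8 CPM in mos11 and 50.5 to 361 CPM in Col-0 (-2.85 ± 0.42; -1.89 without Col-0 replicate 3). Without that library the starvation list still had 10 members lower and a median of -0.94.

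Starch and nitrogen genes moved in part. Of 13 tested genes of starch breakdown, 3 rose (23.1%) and 2 fell (15.4%), and 4 fell without Col-0 replicate 3. The beta-amylase gene BAM1 rose to 534 to 622 CPM in mos11, against 187 to 345 CPM in Col-0 (0.98 ± 0.14). BMY3 rose by 0.86, and the plastid alpha-amylase gene AMY3 fell by 1.21. Of 14 tested genes of nitrogen assimilation, 5 fell (35.7%) and none rose. Without Col-0 replicate 1 there were 3 lower, and without Col-0 replicates 1, 2 or 3 there was 1 higher. NIA1, a nitrate reductase, had 142 to 188 CPM in mos11 and 269 to 528 CPM in Col-0 (-1.33 ± 0.16, adjusted p = 1.05e-05), and the glutamate dehydrogenase genes GDH1 (-1.30 ± 0.24) and GDH2 (-0.94 ± 0.15) fell as well.

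**Figure D3:**
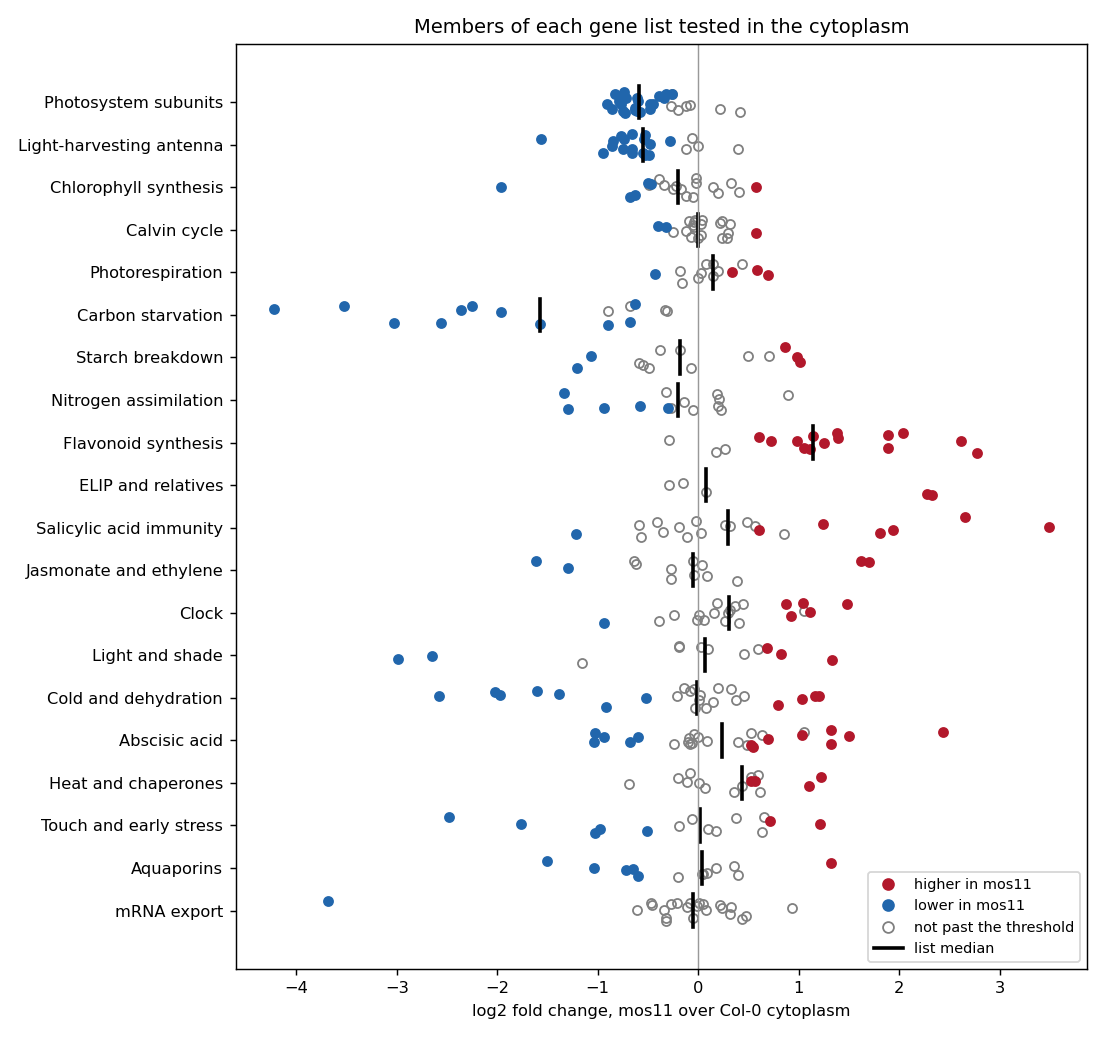
Log2 fold change of mos11 over Col-0 cytoplasm for each tested member of 20 gene lists, drawn 1 above the other; filled points passed the threshold, open points did not, and the bar is the list median. Most photosystem, antenna and starvation members lie left of 0, and most flavonoid members lie right of it.

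Genes of flavonoid synthesis, which make anthocyanins and the flavonols that screen ultraviolet light, rose as a group. Of 17 tested genes of 28 listed, 14 rose and none fell, with a median log2 fold change of 1.14; without Col-0 replicate 3 the count was 13 and the median 0.96. The transcripts of the list summed to 3815 ± 335 CPM in mos11 (SD, n = 5) and 1987 ± 596 CPM in Col-0 (SD, n = 4). The known activators PAP1, MYB12, MYB111 and TT8 had too few counts to test. In the nucleus 15 of the same 17 genes rose.

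F3H, flavanone 3-hydroxylase, stood at 188, 190.2, 154, 147 and 158 CPM in mos11, against 59.3, 58.3, 18.6 and 51.5 CPM in Col-0, without overlap (1.89 ± 0.22, adjusted p = 1.13e-05). 4CL3, the ligase that feeds flavonoid synthesis, had 49.5, 44.6, 44.9, 46.8 and 38.6 CPM in mos11 and 12.5, 11.7, 0 and 4.68 CPM in Col-0 (2.77 ± 0.39; 3.41 without Col-0 replicate 1). Chalcone synthase, TT4, the entry enzyme of the pathway, rose to 1151, 1037, 944, 892 and 948 CPM in mos11, against 470.1, 584, 271 and 609 CPM in Col-0 (1.05 ± 0.17). The late anthocyanin genes LDOX (2.04 ± 0.37) and AT4G14090, a glycosyltransferase gene (2.62 ± 0.41), rose at lower counts, and the flavonol glycosyltransferase gene UGT78D1 rose by 1.40. Both 4CL3 and LDOX were scarce in Col-0 and reached the count filter through the mos11 libraries alone. F3H and TT4 overlap other genes on the opposite strand.

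ELIP1 and ELIP2, proteins made under strong light that bind free chlorophyll, rose while most antenna genes fell. ELIP1 stood at 329, 306, 238, 232 and 209 CPM in mos11 and 64.5, 54.4, 25.7 and 67.8 CPM in Col-0 (2.33 ± 0.22, adjusted p = 8.65e-07). ELIP2 had 311, 264, 198, 235 and 227 CPM in mos11 and 47.8, 75.7, 19.5 and 71.3 CPM in Col-0 (2.28 ± 0.24, adjusted p = 4.56e-06). The other 3 members of this small family did not pass. The promoters of F3H and ELIP1, shown because both genes are light-induced and rose without overlap, each held 1 G-box, in capitals (250 bases before the gene start, TAIR10.1; chr3:19024942-19025191, plus strand and chr3:8085670-8085919, minus strand).
F3H: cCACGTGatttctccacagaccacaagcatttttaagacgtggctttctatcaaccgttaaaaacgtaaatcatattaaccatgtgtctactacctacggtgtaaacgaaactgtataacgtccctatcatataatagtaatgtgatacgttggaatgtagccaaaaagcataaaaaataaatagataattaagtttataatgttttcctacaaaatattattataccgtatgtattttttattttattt
ELIP1: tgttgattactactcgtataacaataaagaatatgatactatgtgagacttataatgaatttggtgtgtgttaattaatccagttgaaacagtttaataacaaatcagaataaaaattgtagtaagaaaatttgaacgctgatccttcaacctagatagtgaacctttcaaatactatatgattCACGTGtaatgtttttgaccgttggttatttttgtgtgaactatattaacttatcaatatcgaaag
A G-box lay in 3 of 17 promoters of the tested flavonoid genes (17.6%), against 7.85% of all tested genes and 6.06% of all genes in the table. In the antenna and photosystem lists, which fell, it lay in 5 of 21 (23.8%) and 5 of 30 (16.7%). Among genes that passed without each library in turn, the share was 12.7% for the higher and 10.7% for the lower.

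The largest rises were sought among genes with a mean of at least 20 CPM that passed without each library in turn and showed no overlap. Of these, the 12 largest rises included LSU1 and ATSDI1. PR1 and ANK, described below, are scarcer and rose by more than either. LSU1, a gene induced when sulfur is low, had 112, 148, 91.9, 80.2 and 88.4 CPM in mos11 and 27.0, 35.0, 6.20 and 18.7 CPM in Col-0 (2.38 ± 0.29, adjusted p = 1.79e-05). ATSDI1, which represses glucosinolate synthesis under low sulfur, had 79.2, 104, 60.2, 52.0 and 61.7 CPM in mos11 and 21.8, 13.6, 2.66 and 12.9 CPM in Col-0 (2.53 ± 0.33). The glucosinolate list gave no common direction, with 5 of 21 tested genes higher (23.8%) and 3 lower (14.3%). MAM1, of side-chain elongation, fell by 0.90, and the myrosinase genes TGG1 and TGG2 rose by 0.90 and 0.93. The protein kinase gene SR1 (2.01 ± 0.24), the cis-prenyltransferase gene cPT4 (2.26 ± 0.34), the peroxidase gene AT5G64120 (2.25 ± 0.28) and the extensin-like gene AT1G26250 (2.09 ± 0.26) were also among the 12 largest rises.

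Immune genes under salicylic acid rose in part. Of 20 tested genes of 34 listed, 6 rose and 1 fell; the fall was lost without mos11 replicates 1 or 5 or Col-0 replicates 3 or 4. ACD6, an ankyrin-repeat protein that promotes salicylic acid signalling, had 64.7, 100.3, 104, 92.8 and 105 CPM in mos11, against 14.6, 46.6, 22.1 and 30.4 CPM in Col-0 (1.81 ± 0.24, adjusted p = 3.44e-05). PR1, the standard marker of this pathway, was scarce, at 23.6, 24.7, 23.5, 23.8 and 28.2 CPM in mos11 and 4.16, 11.7, 0.885 and 2.34 CPM in Col-0 (2.65 ± 0.40; 3.31 without Col-0 replicate 2). Both genes showed no overlap between the groups. PR1 and the next gene, ANK, reached the count filter through the mos11 libraries alone. Their rises among the 6 could thus be tested only because both genes were high in mos11.

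The ankyrin gene ANK was near the limit of detection in Col-0, with 9.90, 27.1, 26.5, 27.5 and 29.7 CPM in mos11 and 1.04, 1.94, 0 and 5.85 CPM in Col-0 (3.49 ± 0.54; 4.77 without Col-0 replicate 4). WRKY70, a transcription factor of salicylic acid defence, rose by 1.24 (adjusted p = 0.00146), and LURP1, a gene induced by downy mildew, by 2.15. SNC1, the receptor gene through which mos11 was found, stood at 67.0, 66.1, 65.3, 60.1 and 60.9 CPM in mos11 and 41.6, 52.4, 36.3 and 40.9 CPM in Col-0. The labels name no snc1 allele in these plants, and the groups did not overlap (0.61 ± 0.16, adjusted p = 0.0142; adjusted p = 0.0679 in the fit of all 18 libraries).

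Defence genes under jasmonate and ethylene split. Of 13 tested genes of 24 listed, 2 rose (15.4%) and 2 fell (15.4%). PR4, a chitin-binding defence protein, had 68.4 to 98.0 CPM in mos11 and 17.5 to 29.1 CPM in Col-0 (1.70 ± 0.19, adjusted p = 7.72e-06), and the basic chitinase gene HCHIB rose by 1.62. AOC3, an enzyme of jasmonate synthesis, fell by 1.29, and the storage protein gene VSP2 was at -1.61 (adjusted p = 0.0102; 0.0843 without Col-0 replicate 4). The list had 1 gene lower without mos11 replicates 1, 4 or 5 or Col-0 replicate 4, and 4 lower without Col-0 replicate 3. Genes annotated as disease resistance proteins had 8 members higher and 1 lower of 46 tested, with a median of 0.40. Of these 46, 45 were in the longest quartile of transcript length, and the medians of all tested genes in their length quartiles averaged 0.18. Without mos11 replicate 2 the higher count was 3, and without Col-0 replicate 4 it was 5; 2 were lower without Col-0 replicates 1 or 2, and none without Col-0 replicate 3.

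Of 20 tested genes of the circadian clock (27 listed), 5 rose and 1 fell, with a median of 0.30. LHY, a morning repressor, had 150.0, 153, 164, 139 and 157 CPM in mos11, against 60.3, 73.8, 31.0 and 60.8 CPM in Col-0 (1.48 ± 0.18, adjusted p = 1.79e-05). Its partner CCA1 had 92.9, 101, 98.0, 90.6 and 89.9 CPM in mos11 and 55.1, 62.1, 24.8 and 39.8 CPM in Col-0 (1.11 ± 0.20, adjusted p = 6.81e-04). Both showed no overlap, and Col-0 replicate 3 was the lowest library for both.

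The related factor gene RVE1 rose by 1.05 and the clock list gene AT5G64170 by 0.93, and TCP11, a TCP factor gene, fell by 0.94. The labels give no hour of harvest, so a difference of sampling time between genotypes cannot be told apart from one of genotype. Of 12 tested genes of light and shade signalling, 3 rose and 2 fell. The shade-induced genes PAR1 and HB-2 stood at 7.61, 2.39, 13.3, 3.71 and 6.69 CPM and 6.09, 12.7, 14.3, 10.4 and 9.66 CPM in mos11, against 22.9, 9.71, 104 and 59.6 CPM and 22.9, 3.88, 135 and 84.2 CPM in Col-0; replicates 3 and 4 of Col-0 were high and the groups overlapped. Their log2 fold changes of -2.99 ± 0.48 and -2.65 ± 0.50 became -2.31 and -1.91 without Col-0 replicate 3. The phytochrome-interacting factor genes PIF7 (1.33 ± 0.29) and PIL6 (0.69 ± 0.13) rose.

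Genes of cold and drought went both ways, with 4 higher and 7 lower of 24 tested and a median of -0.02. COR15A, a chloroplast protein that protects membranes in frost, had 35.0, 23.1, 26.5, 13.4 and 17.1 CPM in mos11, against 90.5, 64.1, 53.1 and 164 CPM in Col-0 (-2.02 ± 0.29, adjusted p = 9.35e-05). COR413IM1, a cold-regulated protein of the inner envelope, had 5.10 to 11.4 CPM in mos11 and 11.7 to 64.6 CPM in Col-0 (-2.40 ± 0.41). Neither pair of groups overlapped, which was a condition for the 12 largest falls that include both genes.

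The dehydrin gene RAB18 was at 108, 106, 75.5, 113 and 107 CPM in mos11 and 594, 278, 92.9 and 636 CPM in Col-0, where replicate 3 lay within the range of the mos11 libraries (-1.97 ± 0.33, adjusted p = 3.73e-04). The seed protein gene LEA7 varied alike, at -2.58 ± 0.57 and -1.95 without Col-0 replicate 4. RCI2A fell by 0.92, and RD20, a drought-induced caleosin gene, rose by 1.20. The core of the cold and drought element (CCGAC, both strands) lay in 10 of 24 promoters of the tested genes of the list (41.7%), against 13.5% of all tested genes and 11.7% of all genes in the table.

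In abscisic acid signalling, 8 of 26 tested genes rose and 5 fell, with 4 or 5 higher without mos11 replicates 2, 3, 4 or 5 or Col-0 replicates 3 or 4, and 3 lower without mos11 replicates 2 or 4 or Col-0 replicates 2 or 3. ABI1, a phosphatase that holds the pathway off, had 75.4, 94.7, 90.9, 89.8 and 89.9 CPM in mos11 and 37.4, 46.6, 31.0 and 29.2 CPM in Col-0 (1.32 ± 0.17, adjusted p = 2.87e-05). The receptor genes PYL4 (-0.60 ± 0.14) and PYL5 (-1.04 ± 0.24) fell, with overlap between the groups. ABA1, which makes a precursor of the hormone, rose by 0.52. Of 15 tested genes for heat factors and chaperones, 4 rose and none fell (7 rose without Col-0 replicate 4), among them the cytosolic chaperone gene HSC70-1 (0.57 ± 0.10), the mitochondrial chaperonin gene HSP60 (0.53 ± 0.13) and the heat factor gene HSF4 (1.22 ± 0.24). The small heat shock proteins were mostly too scarce to test.

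The touch genes TCH3 and TCH4 fell in the cytoplasm. TCH3, a calmodulin-like protein, had 100.5, 102, 108, 144 and 161 CPM in mos11, against 400.4, 276, 705 and 276 CPM in Col-0 (-1.76 ± 0.22, adjusted p = 2.39e-05). In the nucleus it differed by 0.16 (adjusted p = 0.661), and the adjusted p of the difference between fractions was 0.00123. TCH4, a cell-wall enzyme, had 5.33, 0.796, 3.06, 14.8 and 5.95 CPM in mos11 and 30.2, 46.6, 42.5 and 23.4 CPM in Col-0 (-2.48 ± 0.40; -3.13 without mos11 replicate 4). The calmodulin gene CAM2 fell by 1.03. In all, 5 of 14 tested genes of touch and early stress fell and 2 rose. The lower count was 3 without mos11 replicates 2, 3 or 4 or Col-0 replicates 1 or 2; 1 rose without mos11 replicate 2, and none rose without mos11 replicates 1, 3, 4 or 5 or Col-0 replicates 3 or 4. In the nucleus, where 20.1% of the 16207 genes passed in either direction, 10 of these 14 genes rose and 1 fell, with a median of 1.08. The genotype difference differed between fractions for 4 of the 14, each time more negative in the cytoplasm. With 1 library left out at a time, that count was 2 to 6. TCH3 and CAM2 overlap genes on the other strand.

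Growth and water transport genes changed in part. Of 15 tested genes of auxin response and expansins, 5 fell (33.3%) and none rose. Among the 5 were SHY2 (-0.96 ± 0.22) and IAA2 (-1.06 ± 0.26), which encode auxin repressors. On this list 1 gene rose without mos11 replicates 2 or 5 or Col-0 replicate 1. Of 13 tested aquaporin genes, 5 fell (38.5%) and 1 rose (7.69%), and 2 rose without Col-0 replicates 1 or 2. DELTA-TIP, a channel of the vacuole membrane, had 169, 144, 135, 180.4 and 151 CPM in mos11 and 412, 357, 604 and 394 CPM in Col-0, without overlap (-1.51 ± 0.15, adjusted p = 1.60e-06). RD28, a channel of the plasma membrane, rose by 1.32. Among 13 tested antioxidant genes, 1 rose (7.69%) and 3 fell (23.1%), and 1 fell without mos11 replicate 4. CAT2, the leaf peroxisome catalase, rose to 5656 to 6815 CPM in mos11, against 2651 to 5027 CPM in Col-0 (0.59 ± 0.13), and CAT1 fell by 1.43. The metallothionein list had none of 4 tested members past the threshold.

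Markers of epidermis and vascular cells gave no shared shift, and too few markers of guard, root and dividing cells were tested to judge one. The antenna, photosystem and Calvin cycle lists stood for mesophyll, and 42 of their 72 genes fell (58.3%) and 1 rose (1.39%). Among all tested genes 8.15% fell and 7.08% rose. In the epidermis list, 2 of 7 tested genes rose, the wax genes KCS6 (0.88 ± 0.20) and ABCG12 (0.95 ± 0.23), and the protodermal gene PDF1 fell (-1.09 ± 0.17). Vascular markers had none of 7 past the threshold and summed to 274 to 365 CPM in mos11 and 256 to 355 CPM in Col-0. Root markers had none of 3, and dividing-cell markers none of 1. Without mos11 replicate 5 or Col-0 replicate 1 there was 1 vascular marker higher, and without Col-0 replicate 1 there was 1 root marker higher. Guard-cell markers had 1 of 2 higher, a call lost without any of 6 of the 9 libraries, and summed to 52.0 to 74.2 CPM in mos11 and 26.9 to 48.9 CPM in Col-0. Their log2 fold changes were 0.66 and 1.01. In the nucleus, where 20.1% of the 16207 genes passed in either direction, both were higher. The part of any of these cell types in the results was not tested.

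The direction of change varied with transcript length. In the shortest length decile of tested genes (246 to 987 bases), 2.69% were higher and 19.3% lower in mos11, with a median log2 fold change of -0.25. In the longest decile (3470 to 16593 bases), 11.4% were higher and 1.20% lower, with a median of 0.21. The medians of single-exon genes ran the same way, from -0.11 in their shortest to 0.27 in their longest length quartile. Of 108 genes with a mean over 1000 CPM, 7 were higher and 49 lower. The nuclear-enriched share of counts given above was higher in mos11 in every library, and its part in this relation was not tested.

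**Figure D4:**
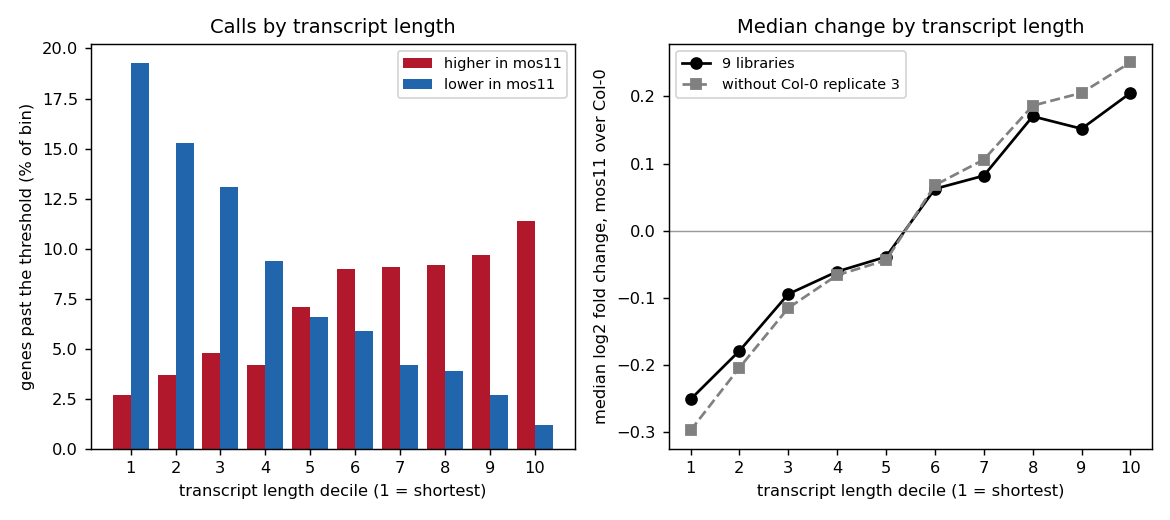
Left, share of tested genes past the threshold in each decile of transcript length, higher (red) and lower (blue) in mos11; right, the median log2 fold change of mos11 over Col-0 in each decile, with all 9 libraries and without Col-0 replicate 3. The lower share falls from decile to decile, and the median is -0.25 in the shortest and 0.21 in the longest decile.

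Genes for ribosomal proteins and histones fell in part. Of 251 tested genes for ribosomal proteins, 58 fell and none rose, with a median of -0.26 (69 fell without Col-0 replicate 3). The medians of all tested genes in their length quartiles averaged -0.16. Without Col-0 replicate 2 there was 1 ribosomal gene higher. Their promoters held a site II element (TGGGCC or TGGGCT, both strands) in 60.2% (151 of 251) and a telo-box (AAACCCTA, both strands) in 15.1%. Among all tested genes the shares were 24.6% and 3.40%, and among all genes counted 18.2% and 4.38%. Of 35 tested histone genes, 11 fell and none rose, with a median of -0.40, against -0.18 for all tested genes averaged over their length quartiles; 6 fell without mos11 replicate 4, and 7 without mos11 replicate 3 or Col-0 replicate 4. Among 68 translation factor genes 5 rose (7.35%) and 3 fell (4.41%), and of 36 proteasome genes 2 fell (5.56%), shares near or under the 7.08% higher and 8.15% lower of all tested genes. The proteasome count was 5 without Col-0 replicate 3 and 0 or 1 without any other library, and 1 gene rose without Col-0 replicate 4. Genes with pentatricopeptide repeats, which edit and process organelle RNA, had 6 of 38 higher (15.8%) and none lower, and 1 fell without Col-0 replicate 1. Protein kinase genes had 26 of 276 higher (9.42%) and 6 lower (2.17%), with a median of 0.11, equal to that of all tested genes averaged over their length quartiles (0.11); 15 were higher without Col-0 replicate 4 and 17 without mos11 replicates 2 or 5, and 2 or 3 were lower without mos11 replicates 1, 2 or 4 or Col-0 replicates 3 or 4.

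RR3 and AT1G05163 took far more of the reads than any other gene. RR3, a response regulator gene of the cytokinin pathway (type A), had 56325, 56521, 48294, 49372 and 50135 CPM in mos11, against 91929, 84822, 74411 and 84755 CPM in Col-0 (-0.69 ± 0.07, adjusted p = 4.56e-06). AT1G05163, annotated as a noncoding RNA, had 36958, 38406, 32441, 31661 and 31744 CPM in mos11 and 54085, 42294, 37124 and 47439 CPM in Col-0, with overlap (-0.40 ± 0.09, adjusted p = 0.00605). Each overlaps a gene on the other strand, AT2G09250 for RR3 and AT1G15410 for AT1G05163. The labels do not say whether counting used strand, and the origin of these reads was not tested. RR3 held 5.21% to 5.87% of the counts in mos11 and 7.25% to 8.43% in Col-0, and AT1G05163 held 3.38% to 3.99% in mos11 and 3.62% to 4.96% in Col-0. The other two tested type-A response regulator genes did not pass.

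Some genes moved in opposite directions in the cytoplasm and the nucleus. AT2G35750, a gene with no described function, had 175, 137, 150.1, 215 and 229.6 CPM in mos11 cytoplasm, against 53.0, 44.7, 69.0 and 49.1 CPM in Col-0 cytoplasm, a rise of 1.72 ± 0.18 (adjusted p = 4.12e-06). In the nucleus it fell by 0.43 (adjusted p = 0.0147). UBC11, a ubiquitin-conjugating enzyme, went the other way, with 12.2, 13.5, 16.3, 13.4 and 16.3 CPM in mos11 cytoplasm and 38.5, 66.0, 31.9 and 40.9 CPM in Col-0 cytoplasm (-1.57 ± 0.24) and a nuclear rise of 0.90.

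FBP, the cytosolic fructose bisphosphatase of sucrose synthesis, fell by 0.56 in the cytoplasm and rose by 0.75 in the nucleus. PHYE, a red-light photoreceptor, rose by 0.99 in the cytoplasm and fell by 0.39 in the nucleus. AT2G39580, a zinc finger gene, was at 1.32 ± 0.37 in the cytoplasm (adjusted p = 0.0184; 0.0591 without Col-0 replicate 3 and 0.0680 without Col-0 replicate 4) and fell by 0.63 in the nucleus. These 5 genes come from those past the threshold in both fractions in opposite directions, taken by the smallest p of the difference between fractions. The adjusted p of that difference, at most 0.00132, was thus set by the choice and is no independent evidence.

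Near MOS11 on chromosome 5, 1 of the 10 tested neighbours within 10 annotated genes on each side changed, a share under the 15.2% of all tested genes. AT5G02830, a gene for a repeat protein at chr5:644279-648538 on the minus strand, had 21.3, 22.3, 40.8, 27.5 and 25.3 CPM in mos11 and 10.4, 19.4, 6.20 and 4.68 CPM in Col-0. Every mos11 library was above every Col-0 library (1.55 ± 0.34, adjusted p = 0.00385). AT5G02760, which overlaps MOS11, was at -0.62 (adjusted p = 0.106).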

How the data were processed

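RNA sequencing counts per gene from 9 cytoplasmic libraries were analysed, with 9 nuclear libraries added for comparisons between fractions. The authors deposited 1 table of raw counts. Per the submitters' processing notes, the build was TAIR10 and the tools were featureCounts, UMI-tools, Picard and STAR 2.7.8a. Per the labels, each cytoplasmic library was run on 2 flow cells; whether a column sums both runs, and the strand rule of the counting, are not given in the sources used here.

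Columns were grouped by their names. Genes were kept by filterByExpr (minimum count 10), scaled by TMM and tested with the edgeR 4.0.16 quasi-likelihood test (R 4.3.3) on genotype alone, Benjamini-Hochberg threshold 0.05; the SE is the log2 fold change over the root of F. DESeq2 1.42.0 and limma 3.58.1 served as alternatives, and other scalings, filters, a 1.5-fold margin, a replicate block and leave-outs are described in the closing section. On simulated counts for this comparison (9421 genes), 11.6% of 1.5-fold, 62.8% of 2-fold and 100% of 4-fold changes were recovered. Of the calls, 4.88% were false. The simulation gave both genotypes the same spread and changed few genes, unlike these libraries, so its shares may not carry over to them. At 556016 to 1280371 counts a library, most of the 30901 genes had too few counts to test.

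Named genes were MOS11, the 12 largest changes in each direction that passed without each library in turn (mean of at least 20 CPM, no overlap), the 10 most abundant changed genes, the members of smallest p in every list (at most 6 each), changed neighbours of MOS11 and genes opposite between fractions; not all are printed. Members and lists were chosen with earlier results of these data known. The genes opposite between fractions were taken by the smallest p of the difference between fractions. Gene names, lengths and sequences come from RefSeq TAIR10.1, whose nuclear chromosomes carry the locus names of the table. Promoters were searched for 10 strings, of which W-box cores (TTGACC or TTGACT), the evening element (AAAATATCT) and the CCA1-binding site (AAAAATCT) are not described further.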

Additional observations from a re-analysis of the deposited data

Results flagged for a closer look

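Some libraries were flagged as apart from the others of their group by a gap test on 4 or 5 values. Chance flags about 1 in 20 groups. The test was run in both genotypes for MOS11 and 95 other named genes, so chance alone can give as many flags as were found. In mos11, replicate 3 was low for RAB18 (75.5 CPM), replicate 5 was high for PR1 (28.2 CPM) and low for CAM2 (20.8 CPM), and replicate 1 was low for ANK (9.90 CPM) and ABI1 (75.4 CPM). In Col-0, replicate 4 was low for PDF1 (130 CPM).

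For other genes the genotype difference was not the same in both fractions, by an interaction term over 18 libraries at an adjusted p of 0.05; values are the log2 fold change of mos11 over Col-0 in the cytoplasm minus that in the nucleus. It was more negative in the cytoplasm for MOS11 (-3.45, -3.64 to -3.29 over the left-out libraries), for the photosynthesis genes LHCA3 (-0.64, -0.67 to -0.60 over the left-out libraries), LHCA1 (-0.64, -0.72 to -0.57 over the left-out libraries), LHCB2.3 (-0.85, -0.94 to -0.74 over the left-out libraries), PSAF (-0.91, -0.97 to -0.82 over the left-out libraries) and PSAO (-0.83, -0.87 to -0.75 over the left-out libraries), and for PORB (-1.19, -1.39 to -0.99 over the left-out libraries), TCH3 (-1.94, -2.08 to -1.53 over the left-out libraries), UBC11 (-2.47, -2.60 to -2.28 over the left-out libraries) and FBP (-1.33, -1.46 to -1.25 over the left-out libraries). It was more positive in the cytoplasm for PHYE (1.37, 1.23 to 1.52 over the left-out libraries), AT2G35750 (2.14, at least 2.03 over the left-out libraries) and AT2G39580 (1.96, 1.77 to 2.32 over the left-out libraries). These 13 differences passed without each of the 18 libraries in turn. For LHY (0.96) the difference was lost without Col-0 nuclear replicate 4, and for HSC70-1 (0.57) without mos11 cytoplasmic replicate 2. For AT1G05163 (0.64) it was lost without mos11 cytoplasmic replicates 2 or 4. For RAB18 (-2.16) it was lost without Col-0 nuclear replicate 4, Col-0 cytoplasmic replicates 1 or 4, mos11 nuclear replicate 1 or mos11 cytoplasmic replicates 3 or 4. For PR4 (1.001) it was lost without Col-0 nuclear replicate 4, Col-0 cytoplasmic replicates 2 or 4, mos11 nuclear replicates 2 or 3 or mos11 cytoplasmic replicates 1 or 4.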

How the results depend on the processing

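The count of 1525 changed genes (709 higher, 816 lower) ran from 1152 to 1547 when each library was left out, with 562 to 739 higher and 590 to 839 lower. It was 1545 under median-of-ratios scaling, 1514 under upper-quartile scaling (chosen after seeing the data; 834 higher and 680 lower), 1693 with no filter, 1386 with at least 20 CPM in 4 libraries, 1254 by DESeq2, 1346 by limma with library weights and 2015 in the fit of 18 libraries. Against a 1.5-fold margin 187 genes passed, 103 higher and 84 lower. With the replicate number as a block the count was 970, of which 496 were lower; 36 ribosomal protein and 4 histone genes then fell. Same-numbered mos11 and Col-0 cytoplasmic libraries did not deviate together (correlations of 0.092, -0.021, -0.029 and -0.028), so the numbers do not pair these libraries across genotypes. MOS11 stayed past the threshold under every setting run (log2 fold change -3.82 to -3.52, and -3.64 with the block). The 256 differences between fractions were 251 under median-of-ratios scaling, 628 with the block, and 132 to 333 without 1 library; the cause was not tested. Of the genes named, none reversed under any setting. Against the 1.5-fold margin, 46 of the 95 named genes besides MOS11 lost their call. Under the other settings the calls lost were SNC1 and AT2G39580 with the block (adjusted p = 0.0559 and 0.0527), IAA2 under DESeq2 (0.0768), and those of SNC1, VSP2 and AT2G39580 given in the report. Depth limits scarce transcripts: 10012 of 30901 genes could be tested.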
